A study of Mus musculus with 8 samples.

Results

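Transcription factors that give mesenchymal cells their place in the body plan were compared between adipose progenitors with high and low surface CD9. They were 10 genes named by symbol: the homeobox genes En1, Gsc, Meox1, Meox2 and Prrx1, the zinc finger genes Osr1, Osr2 and Wt1, and the basic helix-loop-helix (bHLH) genes Tcf21 and Twist2. Of the 45281 probes on the array, 16 carried the symbol of 9 of these genes, and 15 of the 16 were kept, selected on detection p-values under 0.05 on 4 or more of the 8 arrays. No probe in the annotation used carries the symbol Wt1, the gene of a zinc finger factor of the mesothelium and visceral fat, and it was not analysed here. The genes themselves were chosen by symbol with earlier fold changes from these arrays in view, so their differences between the fractions are not independent evidence.

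The samples were CD9high and CD9low progenitors of epididymal white adipose tissue from lean C3H/HeOuJ mice aged 3 months, on chow per the titles. There were 4 samples per fraction and 1 array per sample. All were sorted from the stromal vascular fraction, the cells that collagenase frees from fat, as CD45- CD31- Gp38+ PDGFRα+ cells, and the labels give no difference other than CD9. The design text prints the CD9high gate for both fractions and 1 label of the CD9low samples speaks of high CD9, so samples were placed by their titles. Whether the 4 samples of a fraction were separate animals or pools is not in the labels. The p-values therefore cover only the scatter among these samples, and precision is limited by the array number.

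Positional factors of this kind are switched on in the embryo by signals along the body axes, and many stay on in adult fibroblasts as a record of where the cells arose. Homeodomain and bHLH proteins bind short DNA motifs and act as activators or repressors with partner proteins. In fat, Tcf21 and Wt1 are known from visceral depots, and Osr1 and Prrx1 from the mesenchymal progenitors that give rise to fat and connective tissue in mouse embryos.

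Levels are log2 intensities after normalization, summarised as mean ± SD (n = 4 in each fraction). Differences are CD9high minus CD9low on that scale, that is, log2 fold changes, with a standard error (SE). Probes differ in how well they bind, so no gene's level is set against another's. An array's lowest signal above background averaged 4.76 on the CD9high and 4.78 on the CD9low arrays. Adjusted p-values come from 1 limma fit over all 10724 genes tested, with Benjamini-Hochberg adjustment and a threshold of 0.05. Between 18618 and 23121 probes per array were above background. Cd9, read to check the labels, averaged 8.44 in CD9high against 4.80 in CD9low, and the lowest CD9high array (8.27) lay above the highest CD9low array (5.40). The progenitor markers tested, 10 in number, were above background on every array, among them Pdgfra (11.22 in CD9high, 11.13 in CD9low) and Pdpn, which encodes Gp38 (11.03 in CD9high, 11.08 in CD9low). CD9low replicate 2 stood apart from the other arrays: its rank correlation with them ran from 0.773 to 0.813, against 0.851 to 0.899 among the other arrays, and it had the fewest probes above background.

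Of the 9 genes tested, 2 passed the test higher in CD9high (En1 and Osr2), 1 lower (Gsc), and 6 did not pass. Over all genes tested, 1.13% passed higher and 0.559% lower in CD9high, 1.69% in all. An unadjusted p under 0.05 was found for 6 of the 9, against 10.7% of all genes, and a difference of at least 1 in either direction for 5, against 5.25%. The fractions did not overlap for 5 of the 9 (En1 and Osr2 with CD9high above, Gsc, Meox1 and Twist2 with CD9high below), against 7.69% of all genes (3.92% with CD9high above and 3.78% below). Of the 15 probes kept, 4 passed the fit over probes, against 1.22% of all probes tested. Nothing is read from these counts, since the genes were picked with the same contrast in view. The detection rule admitted none of the 9 through a single fraction: the probes kept were above background on 7 or 8 arrays, and the probe left out on 1. The median difference of the 9 genes was 0.07 and that of all genes tested -0.04.

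**Figure D1:**
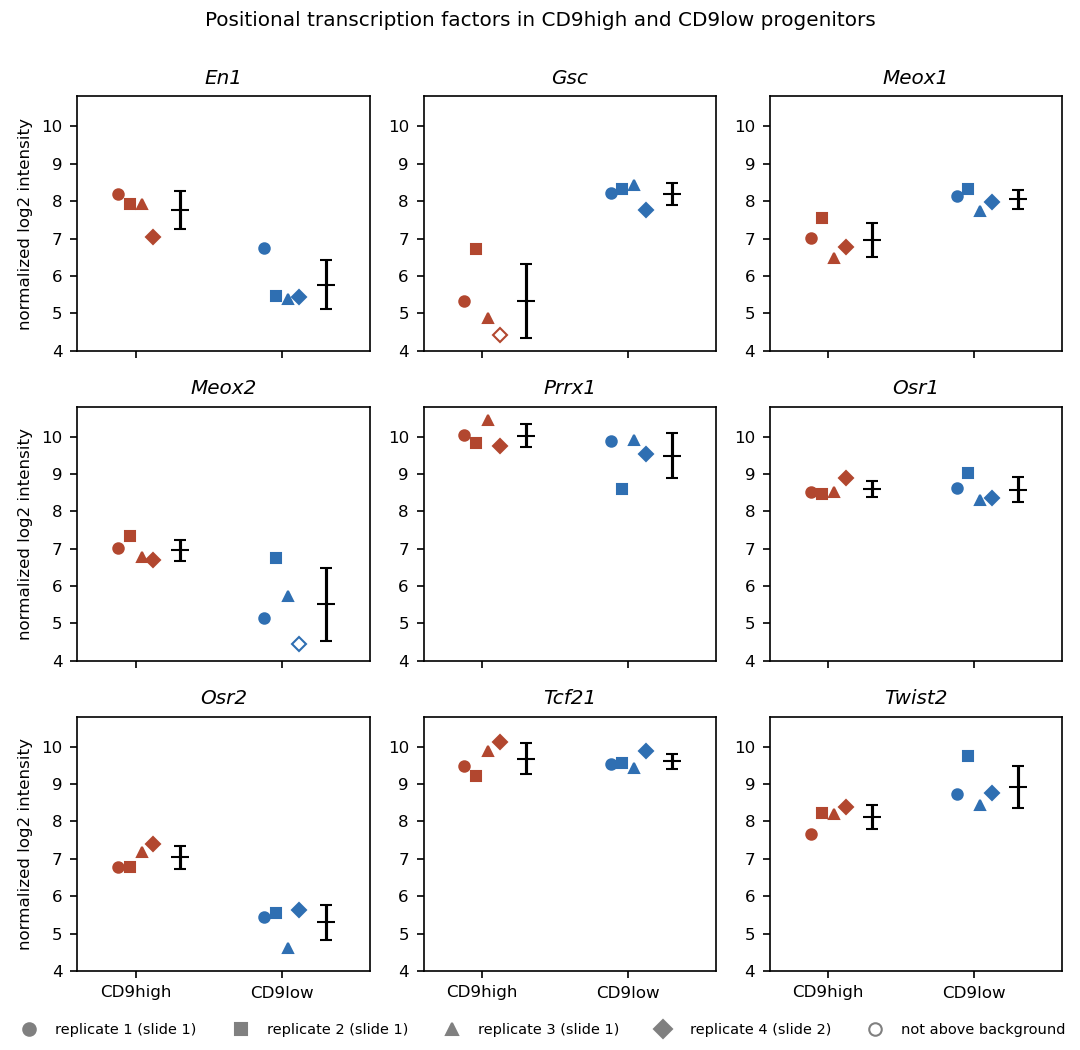
Normalized log2 intensity of the 9 genes on each of the 8 arrays, CD9high at the left and CD9low at the right of each panel. Marker shapes give the replicate and its slide, open markers arrays on which the probe was not above background, and black bars the mean ± SD of 4 arrays. The fractions are separate for En1, Gsc, Osr2, Meox1 and Twist2 and overlap for Meox2, Prrx1, Osr1 and Tcf21.

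The 250 bases before the start site are shown for Gsc and En1, the genes with the largest difference in each direction, because these bases hold the core promoter. RefSeq promoters of build GRCm38.p6 were at hand for 6 of the 10 genes. The arrays measured no binding or methylation there. Capitals mark matches on either strand to any of 6 motifs, which do not overlap here. TATAAA is the sequence of the TATA box, CCAAT the site of the factor NF-Y, and GGGCGG the GC box of Sp factors. Matches are of sequence alone, and whether any works as a site at its position was not tested. CACGTG is an E-box, the kind of site that bHLH proteins bind, TAATTA a homeodomain core and TAATCC a core bound by Goosecoid-type homeodomains. The Gsc promoter lies at chr12:104473237-104473486 on the minus strand and the En1 promoter at chr1:120602237-120602486 on the plus strand.
Gsc: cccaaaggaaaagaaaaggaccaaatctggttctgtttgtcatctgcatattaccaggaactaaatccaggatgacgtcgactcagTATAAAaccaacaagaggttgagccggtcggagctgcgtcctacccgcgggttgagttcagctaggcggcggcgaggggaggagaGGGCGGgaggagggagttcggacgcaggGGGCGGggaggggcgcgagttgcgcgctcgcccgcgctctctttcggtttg
En1: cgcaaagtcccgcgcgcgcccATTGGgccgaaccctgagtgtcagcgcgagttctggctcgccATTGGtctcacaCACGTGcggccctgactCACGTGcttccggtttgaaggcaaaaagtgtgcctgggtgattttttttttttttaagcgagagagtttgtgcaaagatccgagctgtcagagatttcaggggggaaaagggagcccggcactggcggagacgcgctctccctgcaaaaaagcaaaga
The Gsc promoter held 1 TATAAA, starting at base -164 from the start site, and GGGCGG at bases -79 and -51. The En1 promoter held CCAAT (read as ATTGG on this strand) at bases -229 and -187 and CACGTG at bases -175 and -158. Neither held TAATTA or TAATCC. Over the same window of 32851 mouse promoters, TATAAA was found in 12.4%, CCAAT in 33.8%, GGGCGG in 32.7%, CACGTG in 6.02%, TAATTA in 4.84% and TAATCC in 6.25%. Gsc had 22 and En1 19 CpG dinucleotides in this window, against a median of 6.

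Gsc, which encodes the homeobox repressor Goosecoid of the gastrula organizer and later of the face and ribs, fell in CD9high. Its probe (ILMN_1232648) read 5.34, 6.71, 4.86 and 4.42 on CD9high replicates 1 to 4, against 8.22, 8.33, 8.44 and 7.77 on CD9low replicates 1 to 4. All CD9high arrays lay below all CD9low arrays, and on CD9high replicate 4 the probe was not above background. As deposited, before normalization, its signals ran from 3.53 to 87.3 in CD9high, against 208 to 378 in CD9low. Gsc averaged 5.33 ± 0.99 in CD9high and 8.19 ± 0.29 in CD9low. That is a log2 fold change of -2.86 with an SE of 0.43 (adjusted p = 0.0107), or 7.24-fold lower. The spread was on the CD9high side, where replicate 2 stood above the other arrays. The call held without each array in turn and was lost with no filter on dim probes (adjusted p = 0.0509).

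En1, which encodes Engrailed-1, a factor of the ventral limb bud and the midbrain that also marks a fibroblast lineage of mouse back skin, rose in CD9high. Its probe (ILMN_2776047) read 8.18, 7.93, 7.93 and 7.04 on CD9high replicates 1 to 4, against 6.74, 5.47, 5.39 and 5.43 on CD9low replicates 1 to 4. The probe was above background on all 8 arrays, and the lowest CD9high array lay above the highest CD9low array. En1 averaged 7.77 ± 0.50 in CD9high and 5.76 ± 0.65 in CD9low. The log2 fold change was 2.01 with an SE of 0.36 (adjusted p = 0.0228), or 4.04-fold. CD9low replicate 1 was high for its fraction, and without it the log2 fold change was 2.34 (adjusted p = 0.00966). The call was lost without CD9high replicate 1 (adjusted p = 0.0909), CD9high replicate 2 (0.0658), CD9high replicate 3 (0.0836), CD9low replicate 3 (0.0814) or CD9low replicate 4 (0.0827), and with no filter on dim probes (0.0808). A further En1 probe, the one left out, was above background only on CD9low replicate 3, and its means were 4.41 in CD9high and 4.44 in CD9low, both under the lowest signal above background. The result for En1 therefore rests on a single probe.

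The Meox genes, homeobox factors of the somites, did not pass the test, and their values ran in opposite directions. Meox1 read 7.02, 7.54, 6.47 and 6.77 on CD9high replicates 1 to 4, against 8.15, 8.33, 7.74 and 7.98 on CD9low replicates 1 to 4, with no overlap. Its difference was -1.10 (SE 0.27, adjusted p = 0.0872), and without CD9high replicate 2, the highest of its fraction, it was -1.30 (adjusted p = 0.0439). Meox1 passed in that 1 of 19 alternative analyses, and without any other single array its adjusted p ran from 0.119 to 0.247. Meox2, also called Gax and known from vascular smooth muscle and endothelium as well as muscle precursors, read 7.02, 7.33, 6.78 and 6.69 in CD9high. In CD9low it read 5.14, 6.75, 5.73 and 4.44, and replicate 4 was not above background there. Its difference was 1.44 (SE 0.43, adjusted p = 0.177). CD9low replicate 2 was the CD9low array that reached into the CD9high range, and without it the difference was 1.85 (SE 0.31, adjusted p = 0.0156). Meox2 passed in that 1 of 19 alternative analyses, and without any other single array its adjusted p ran from 0.232 to 0.390. CD9low replicate 2 was the array that stood apart from the rest. Leaving it out also changed the counts over all genes, from 121 higher and 60 lower to 158 and 72.

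Prrx1, a homeobox factor of limb bud mesenchyme, had 6 probes, all kept. With the brightest, CD9high read 10.05, 9.83, 10.45 and 9.75, against 9.89, 8.61, 9.91 and 9.54 in CD9low, and the fractions overlapped. The difference was 0.53 (SE 0.32, adjusted p = 0.610). The differences of the 6 probes ran from 0.28 to 0.62, all above 0, and none passed the test (adjusted p of 0.661 to 0.807 over the 18085 probes tested). CD9low replicate 2 gave the lowest CD9low value with 5 of the 6 probes, and without it the gene's difference was 0.24 (adjusted p = 0.860).

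**Figure D2:**
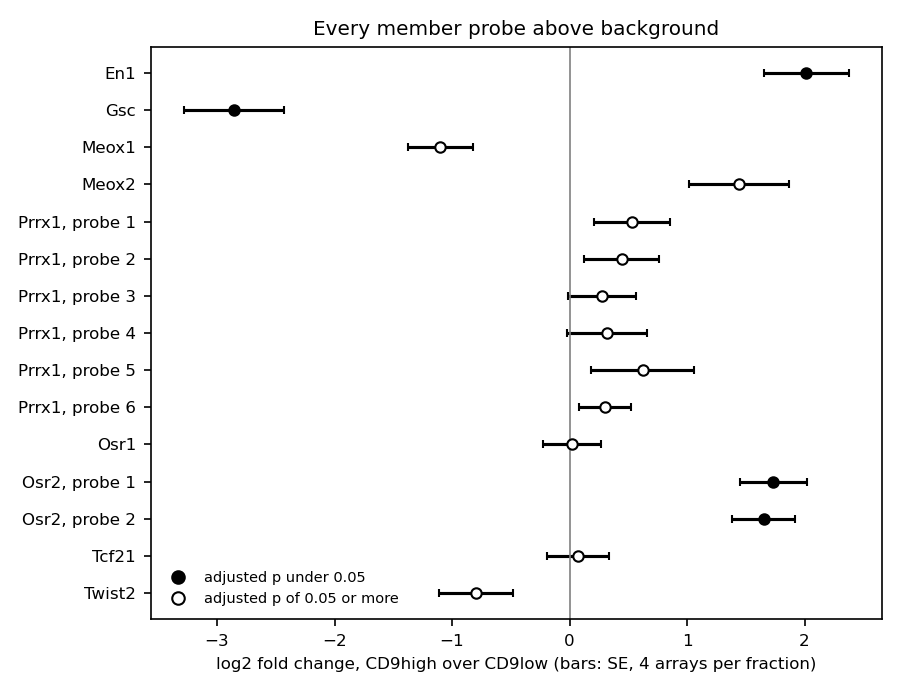
Log2 fold change of CD9high over CD9low for each of the 15 probes kept, with bars for the SE over 4 arrays per fraction. Filled points passed an adjusted p of 0.05 over all 18085 probes tested. Both Osr2 probes lie near 1.7, the 6 Prrx1 probes between 0.28 and 0.62, and Gsc at -2.86.

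Of the odd-skipped zinc finger genes, Osr2, a factor of the palate and joints, rose in CD9high, whereas Osr1, a factor of intermediate mesoderm and kidney that marks embryonic connective tissue progenitors in mice, did not pass the test. Osr2 read 6.79, 6.79, 7.18 and 7.39 on CD9high replicates 1 to 4, against 5.44, 5.54, 4.61 and 5.63 on CD9low replicates 1 to 4. The fractions were separate, with CD9high above, and CD9low replicate 3 was the lowest array, close to background (detection p of 0.0491). Osr2 averaged 7.04 ± 0.30 in CD9high and 5.31 ± 0.47 in CD9low. The log2 fold change was 1.73 with an SE of 0.28 (adjusted p = 0.0133), or 3.32-fold. Of the analyses without 1 array, the call was lost in that without CD9high replicate 3 (adjusted p = 0.0555). The other Osr2 probe, above background on 4 CD9high and 3 CD9low arrays, read 6.62, 7.02, 6.19 and 6.34 in CD9high, against 4.88, 5.31, 4.54 and 4.84 in CD9low. It too passed in the fit over probes, at 1.65 on the log2 scale (SE 0.27, adjusted p = 0.0137). Since the same RNA was read by both probes, they check the probe and not the samples.

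Osr1 read 8.51, 8.45, 8.51 and 8.90 on CD9high replicates 1 to 4, against 8.62, 9.03, 8.30 and 8.35 on CD9low replicates 1 to 4. The fractions overlapped, with means of 8.59 ± 0.21 in CD9high and 8.57 ± 0.33 in CD9low and a difference of 0.02 (SE 0.24, adjusted p = 0.985). Its sign turned in 4 of 19 alternative analyses.

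Close relatives were also set side by side within arrays, as the log2 difference between their probes, centred on its mean over the 8 arrays. The 2 pairs were chosen after the values above were seen and restate them, so the differences are a description, with no test. Osr2 minus Osr1 was 0.69, 0.76, 1.08 and 0.90 on CD9high replicates 1 to 4, against -0.76, -1.08, -1.27 and -0.31 on CD9low replicates 1 to 4. The fraction means lay 1.71 apart. Meox2 minus Meox1 was 1.26, 1.06, 1.57 and 1.19 on CD9high replicates 1 to 4, against -1.74, -0.32, -0.75 and -2.28 on CD9low replicates 1 to 4. The fraction means lay 2.54 apart, although neither Meox gene passed the test on its own. In both pairs the fractions did not overlap.

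**Figure D3:**
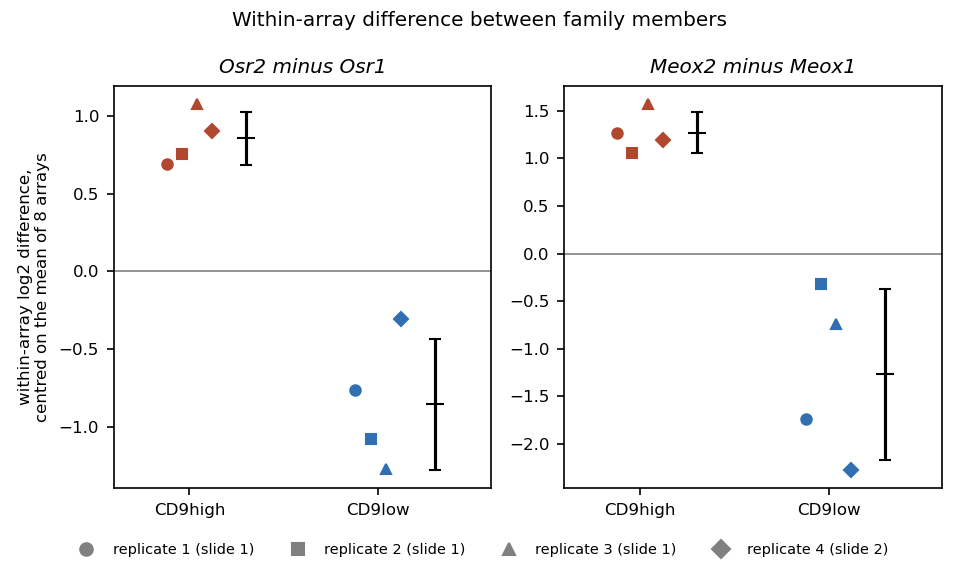
Log2 difference between the probes of Osr2 and Osr1 (left) and of Meox2 and Meox1 (right) on each array, centred on the mean of the 8 arrays, with CD9high left of CD9low. Black bars are the mean ± SD of 4 arrays; all CD9high arrays lie above 0 and all CD9low arrays below 0 in both panels.

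The bHLH genes did not pass the test. Tcf21, which encodes a factor of kidney, lung and epicardial mesenchyme, read 9.48, 9.22, 9.89 and 10.14 in CD9high, against 9.54, 9.56, 9.44 and 9.89 in CD9low. The fractions overlapped and the difference was 0.07 (SE 0.25, adjusted p = 0.944). Twist2, which encodes the dermal factor also called Dermo1, read 7.67, 8.23, 8.20 and 8.40 in CD9high, against 8.73, 9.75, 8.45 and 8.76 in CD9low. The fractions did not overlap, but replicate 4 of CD9high (8.40) and replicate 3 of CD9low (8.45) nearly met. The difference was -0.80 (SE 0.31, adjusted p = 0.374), and without CD9low replicate 2, the highest array, it was -0.52 (adjusted p = 0.476).

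**Figure D4:**
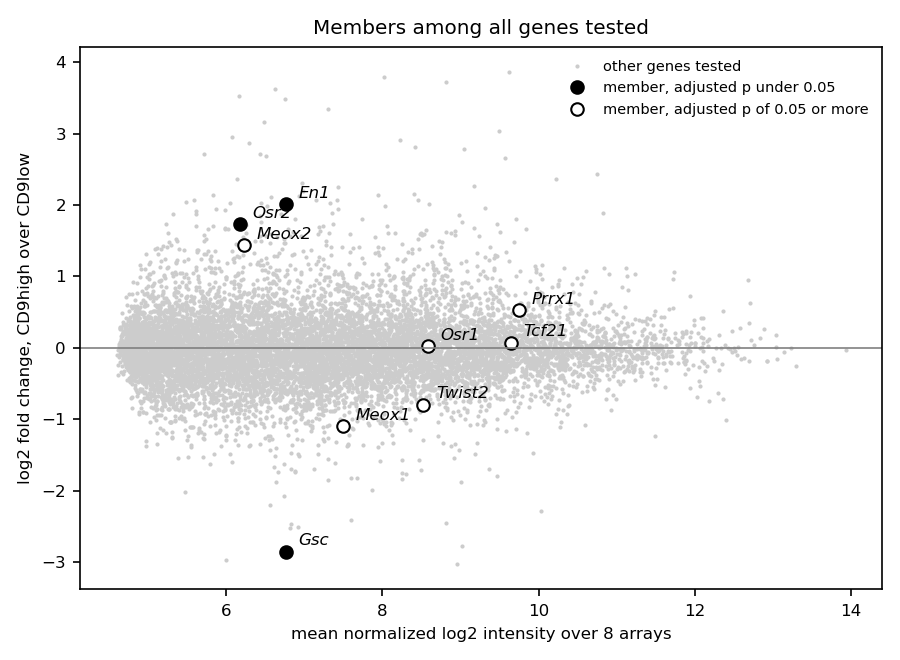
Log2 fold change of CD9high over CD9low against the mean normalized log2 intensity over 8 arrays for the 10724 genes tested, with the 9 positional factors as circles, filled where the adjusted p was under 0.05. Gsc lies near the lower edge of the cloud at -2.86, En1 (2.01) and Osr2 (1.73) in its upper part, and Osr1 (0.02) and Tcf21 (0.07) close to 0.

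Both fractions had replicates 1 to 3 on slide 1 and replicate 4 on slide 2. With 1 array per fraction, slide 2 gives a value and no test. The difference for Gsc was -2.69 on slide 1 (adjusted p = 0.0536) and -3.35 on slide 2. For En1 it was 2.15 on slide 1 (adjusted p = 0.0763) and 1.61 on slide 2. For Osr2 it was 1.72 on slide 1 (adjusted p = 0.0954) and 1.77 on slide 2. Slide 1 alone thus gave no calls among the 9 genes with limma, although 6 had an unadjusted p under 0.05, as over all 8 arrays. With the slide as a block all 3 calls held, with adjusted p of 0.00807 for Gsc, 0.0215 for En1 and 0.0174 for Osr2. Among the other genes Meox1 differed by -1.06 on slide 1 and -1.22 on slide 2, Meox2 by 1.17 and 2.25, Twist2 by -0.94 and -0.36, and Prrx1 by 0.64 and 0.21. Their adjusted p with the slide as a block ran from 0.124 to 0.651. Osr1 changed sign between the slides, at -0.16 on slide 1 and 0.56 on slide 2, and Tcf21 was at 0.02 and 0.24. Without CD9low replicate 2, the log2 fold changes were -2.81 for Gsc (adjusted p = 0.0156), 1.92 for En1 (0.0337) and 1.81 for Osr2 (0.0114).

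The genes whose profiles over the 8 arrays were most like those of Gsc, En1, Osr1 and Osr2 were sought among all genes tested, by the root mean square (RMS) difference of the profiles, each centred on its own mean. Nearest to Gsc were Acer2, an alkaline ceramidase gene (RMS difference 0.50, log2 fold change -2.77), Blnk, an adaptor gene of B cells (0.68), and Cnmd, the chondromodulin gene (0.74 and -2.98). No CD9high array read Blnk above background: it averaged 4.47 in CD9high and 6.49 in CD9low, at least 3.33-fold lower in CD9high, taking the lowest signal above background as the floor. Cnmd was above background on 1 of 4 CD9high arrays. Nearest to En1 were Pla2g4a, a cytosolic phospholipase gene (0.35 and 1.99), C7, a complement gene (0.37 and 1.89), and Slc6a7, a transporter gene (0.40 and 1.95). Nearest to Osr2 were Frmd7 (0.25 and 1.38), Igdcc4 (0.26 and 1.52) and Col14a1, a collagen gene (0.29 and 1.63). All 9 of these passed the test, with adjusted p of 0.000844 to 0.0287. Since they were chosen for likeness to genes that passed, their passing is not independent evidence. The profile of Gsc itself had an RMS of 1.56 about its mean, that of En1 1.13 and that of Osr2 0.93. Osr1 had a nearly flat profile (RMS 0.24). By the same choice, the genes nearest to it, Dazap1, Atg5 and Zfp385c, were flat too, with log2 fold changes of 0.01 to 0.07.

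Other patterning regulators were followed on 6 lists, in the same fit. Tested were 11 of 40 homeobox factors listed, 26 of 39 bHLH and zinc finger factors and 16 of 21 cofactors. On the other lists, 12 of 25 activin and nodal genes, 7 of 22 urogenital regulators and 7 of 22 somite regulators were tested. The rest had no probe kept. An unadjusted p under 0.05 was found for 10.7% of all genes tested. Of 11 tested homeobox factors outside the Hox clusters, none passed the limma test, 2 had an unadjusted p under 0.05, and the median log2 fold change was 0.21, with 8 above 0. The smallest p belonged to Msx1, a muscle segment homeobox gene, which stood at 5.87 ± 0.35 in CD9high and 4.81 ± 0.40 in CD9low (difference 1.06, SE 0.28, adjusted p = 0.107). Only 2 of 4 CD9low arrays read it above background. Satb1 (-0.73), Barx1 (0.62) and Alx4 (1.04) followed, with adjusted p of 0.446 to 0.553.

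Of 26 other bHLH and zinc finger mesenchymal factors, 1 rose and 0 fell, while the median over the list was 0.03. In all, 7 of the 26 had an unadjusted p under 0.05, against 10.7% of all genes tested. The fractions did not overlap for 6, against 7.69% of all genes. The list was chosen with earlier results of these data known, so nothing is read from these counts. Id2, which encodes an inhibitor of bHLH factors, averaged 8.58 ± 0.17 in CD9high and 7.57 ± 0.19 in CD9low and rose by 1.01 on the log2 scale (SE 0.21, adjusted p = 0.0424). That call was lost in 13 of 19 alternative analyses, among them the authors' normalized values (adjusted p = 0.0519), the slide as a block (0.0695) and each of 7 of the 8 analyses without 1 array (0.0533 to 0.148). It held without CD9low replicate 2. Id4, of the same inhibitor family, differed by 0.73 (SE 0.20, adjusted p = 0.143), the bHLH repressor gene Msc by -1.19 (SE 0.33, adjusted p = 0.143) and Zfp423, a zinc finger gene of preadipocyte commitment, by 1.05 (SE 0.37, adjusted p = 0.30).

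Cofactors through which homeodomain and odd-skipped proteins act, the Pbx, Meis and Tle genes and histone deacetylases, held no call among 16 tested with limma, with 1 unadjusted p under 0.05 and a median of 0.01. Meis1, which encodes a homeodomain partner, differed by -0.76 (SE 0.25, adjusted p = 0.246) without overlap of the fractions. Tle5 (0.59), Pknox1 (0.48) and Tle3 (0.68) followed with adjusted p of 0.521 to 0.655.

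Activin and nodal signalling, known to induce Gsc in the gastrula, held no call among 12 genes tested with limma. An unadjusted p under 0.05 was found for 5, against 10.7% of all genes. The median was 0.02, with 6 genes on either side of 0. Of the 25 genes listed, 9, among them Nodal and Foxh1, were not above background on any array. The antagonist gene Fstl3 differed by 1.02 (SE 0.32, adjusted p = 0.227) and Inhba, which encodes an activin subunit, by 0.81 (SE 0.35, adjusted p = 0.437). The receptor gene Acvr2b differed by -1.68 (SE 0.60, adjusted p = 0.322) and Smad3, which encodes a signal transducer, by -0.57 (SE 0.21, adjusted p = 0.326).

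Of 7 tested regulators of intermediate mesoderm and the urogenital system, the setting of Osr1 and Wt1 in the embryo, 0 rose and 1 fell. The median over the list was -0.01, and 2 of the 7 had an unadjusted p under 0.05, against 10.7% of all genes tested. The gene that fell was Ret, a receptor tyrosine kinase gene of the ureteric bud, at 7.59 ± 0.95 in CD9high and 10.04 ± 0.55 in CD9low (log2 fold change -2.45, SE 0.45, adjusted p = 0.0261). Its call was lost in 6 of 19 alternative analyses, 5 of them without 1 array (CD9high replicates 1, 2 and 3 and CD9low replicates 3 and 4, adjusted p of 0.0599 to 0.101). Bmp7, a BMP ligand gene, differed by 1.71 (SE 0.42, adjusted p = 0.0872) without overlap. It averaged 4.75 in CD9low, where only 2 of 4 arrays read it above background. Bmp7 passed in 1 of 19 alternative analyses, that without CD9high replicate 2 (2.15, adjusted p = 0.0110). Without any other single array its adjusted p ran from 0.136 to 0.264. Sall1 (-0.24) and Foxc1 (-0.03) lay near 0. None of the 7 tested somite and dermomyotome regulators passed with limma, none had an unadjusted p under 0.05, and the median was -0.06. Dmrt2 (0.41), Eya2 (-0.43), Scx (-0.22) and Tbx18 (0.23) had the smallest p there, with adjusted p of 0.656 to 0.893.

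**Figure D5:**
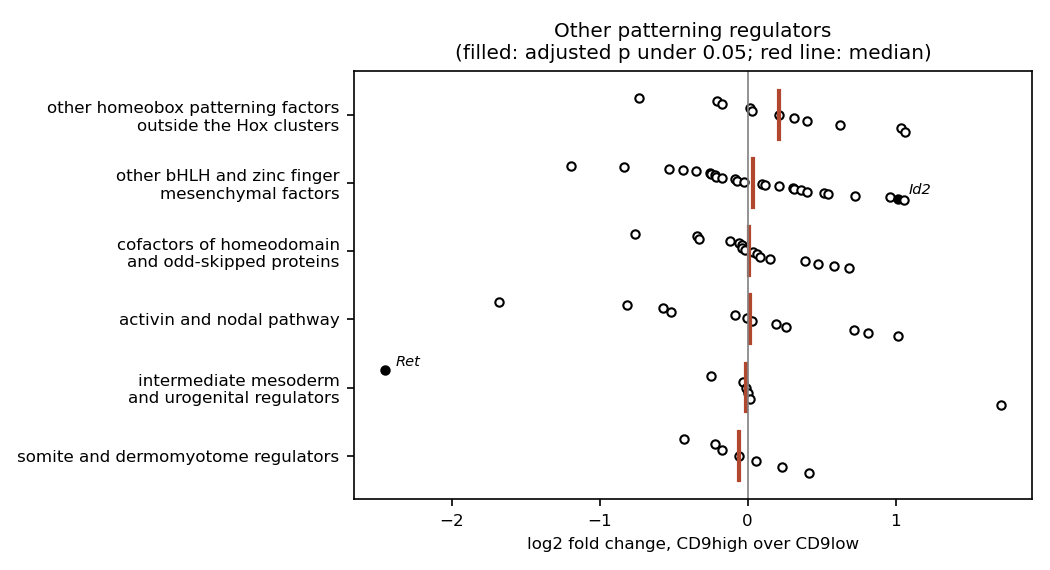
Log2 fold changes of CD9high over CD9low for the genes tested on 6 lists of patterning regulators and their partners, 1 point per gene, filled where the adjusted p was under 0.05, with a red line at each list's median. Id2 and Ret are the filled points, and the medians lie between -0.06 and 0.21.

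Several of these factors are also known from other cell types of the tissue, so markers of those cells were read beside them. In these arrays fewer cells of a type and less RNA per cell cannot be told apart. Over all genes tested, 45.6% of log2 fold changes were above 0. Pericyte and smooth muscle markers were below 0 for 9 of 10 (median -0.33). Their summed normalized intensity was 2665 to 3598 over the CD9high arrays and 3166 to 5337 over the CD9low arrays. Endothelial markers were below 0 for 7 of 8 (median -0.22), with sums of 1934 to 2434 in CD9high and 1811 to 4693 in CD9low. Mesothelial markers were above 0 for 5 of 5 tested among 12 listed (median 0.25), with sums of 306 to 598 in CD9high and 215 to 385 in CD9low. Of the mesothelial list, Krt19 and Upk1b were not above background on any array. Leukocyte markers were below 0 for 8 of 9 (median -0.14), with sums of 739 to 4129 in CD9high and 540 to 5587 in CD9low. For each of these lists the sums of the fractions overlapped. None of these markers passed the test on its own with limma, and of the pericyte, endothelial, mesothelial and leukocyte lists 2 genes had an unadjusted p under 0.05. Of 12 epididymal epithelial markers listed, 5, among them Epcam, Cldn3 and Cldn4, were not above background on any array. Lcn8 of that list was above background on 2 CD9high and 3 CD9low arrays, reaching 8.37 in CD9high and 8.85 in CD9low. Of 8 skeletal muscle markers, 6, among them Ckm and Myh4, were not above background on any array. Tnni2 of that list was above background on 3 CD9high arrays and 1 CD9low array. Whether other cells have a part in the differences of Gsc, En1, Osr2 or the Meox genes was not tested.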

How the data were processed

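Total RNA of 8 sorted samples was amplified (Ovation Pico WTA System V2), labelled with biotin and read on Illumina mouse bead arrays, per the labels' protocols. The authors deposited signal intensity values for 45281 probes with a detection p-value each, per the file headers; the submitters' processing notes name GenomeStudio. These deposited intensity values had medians of 5.03 to 10.5 and so lacked normalization across arrays, and they were already background-subtracted (median detection p of 0.434 for signals within 0.5 of 0). The authors' normalized intensity table, with no stated method, was an alternative.

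With limma 3.58.1 in R 4.3.3, neqc (negative controls inferred from detection p-values, offset 16) corrected, quantile normalized and log2 transformed the signals. It compresses differences of dim probes. Gene names came from the platform annotation: 34885 probes had 1 symbol, 18 several and 10378 none. Named probes with detection p under 0.05 on at least 4 of 8 arrays were tested (18085 probes, 10724 genes), each gene by its brightest probe, with lmFit and eBayes and Benjamini-Hochberg adjustment over all genes tested. The rule's other clause, all 4 arrays of 1 fraction, adds no probe. The fit was tested on simulated data.

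Members and lists were chosen with earlier results of these data known. Named genes are the members, the 3 genes nearest in profile to En1, Gsc, Osr1 and Osr2, and the 4 of smallest p on each list of patterning regulators. Lists of cell type markers (progenitor, mesothelial, epididymal epithelial, leukocyte, endothelial, pericyte and smooth muscle, adipocyte, skeletal muscle, Schwann) are described by counts. The median log2 fold change was 0.02 over 10 progenitor markers and -0.19 over 4 adipocyte markers. Of the epididymal epithelial list 1 gene was tested (Lcn8, -0.19), of the skeletal muscle list 1 (Tnni2, 1.23, adjusted p = 0.375) and of the Schwann list 2 (median 0.01). Alternatives changed the background correction, scaling, offset, filter, probe choice, moderation, slide, replicate block and arrays used.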

Additional observations from a re-analysis of the deposited data

Results flagged for a closer look

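A sample stood far from the rest of its fraction in 2 of the 18 sets of 4 arrays examined, by a Dixon test of the gap to the nearest array; chance flags about 1 set in 20. En1 stood at 6.74 on CD9low replicate 1, against 5.39 to 5.47 on the other CD9low arrays. Osr1 stood at 8.90 on CD9high replicate 4, the CD9high array of slide 2, against 8.45 to 8.51 on the other CD9high arrays.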

How the results depend on the processing

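Among 19 alternatives, Gsc, En1 and Osr2 kept their directions in all. All 3 passed the test without background correction, with median centring, with an offset of 50, on the authors' normalized values, with a stricter filter, with the slide as a block, with trend and robust moderation and with the probe detected on most arrays. The other counts below are set against 2 genes higher and 1 lower. With no filter on dim probes 1 member was higher (Osr2) and 0 lower (adjusted p of 0.0808 for En1 and 0.0509 for Gsc), on slide 1 alone 0 were higher and 0 lower, and without 1 array in turn 0 to 3 were higher and 1 to 2 lower. Over all genes, 121 higher and 60 lower became 35 and 13 on slide 1 alone and 36 to 158 and 18 to 72 without 1 array in turn, and median centring gave 32 lower. Probes of the members that passed, 4 in all, ranged from 1 to 5 without 1 array in turn.

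Whether replicate numbers shared by the fractions pair the arrays could not be shown: deviations from the fraction means correlated at 0.22, -0.10, 0.18 and 0.16 for numbers 1 to 4. With the replicate number as a block, 1 member was higher (En1, adjusted p = 0.0356) and 1 lower (Gsc, 0.0276), Osr2 stood at 0.0605, and over all genes 56 were higher and 20 lower.

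Signs turned only for genes near 0, none of them past the threshold. On slide 1 alone Osr1 came to -0.16, Dazap1 to -0.11, Atg5 to -0.14 and Zfp385c to -0.17, and with median centring Dazap1 came to -0.018 and Foxc1 to 0.087. Without 1 array in turn, Osr1 ranged from -0.082 to 0.17, Tcf21 from -0.080 to 0.23, Dazap1 from -0.076 to 0.16, Atg5 from -0.12 to 0.16, Zfp385c from -0.052 to 0.28, Foxc1 from -0.29 to 0.41 and Tbx18 from -0.28 to 0.48. Calls were also lost for C7, Frmd7 and Col14a1 in 7 alternatives each and for Igdcc4 in 2, and Id4 passed with no filter (adjusted p = 0.0341). The shifts between paralogues, checked in 4 alternatives chosen after seeing the data, were 1.14 to 1.80 for Osr2 over Osr1 and 1.85 to 2.58 for Meox2 over Meox1. The causes of these changes were not tested. Signals near background limit what can be said of Gsc in CD9high and of En1 and Osr2 in CD9low, since differences there are compressed.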
